A study of Mus musculus with 4 samples.

Results

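Matricellular proteins are secreted into the extracellular matrix but, unlike collagens, mainly regulate cells and matrix assembly rather than bear load. The 10 genes considered here encode tenascin C (Tnc), 4 thrombospondins (Thbs1, Thbs2, Thbs3 and Thbs4), osteopontin (Spp1), periostin (Postn), Sparc and 2 proteins of the CCN family (Ccn2 and Ccn3). They were chosen by name, and a gene was read from the probe set whose only symbol in the array annotation was that name. With this rule 9 of the 10 had a probe set, 1 each, among 19938 genes with a probe set of their own. Spp1 was not matched, and no level is given for it. All 9 passed the filter on dim genes (a mean over the arrays of at least 4.70 on the log2 scale), which left 14955 genes tested.

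The hearts came from mice taken 1 week after TAC (transverse aortic constriction), an operation that narrows the aorta and makes the left ventricle pump against higher pressure. There was 1 array of a wild type heart and there were 3 of MAFbx KO hearts, which lack the muscle F-box protein MAFbx (atrogin-1, the product of Fbxo32). All 4 hearts had the operation, so nothing here shows how a gene responded to it. The labels give neither age, sex, strain nor the part of the heart, nor do they say whether the deletion is confined to a cell type or whether each numbered heart is a separate animal. The spread behind every p-value is that between the knockout arrays, and it may be partly technical.

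Most matricellular genes are quiet in the healthy adult heart and are switched on in fibroblasts, and some in macrophages or muscle cells, when the tissue is loaded or injured. Transforming growth factor beta, angiotensin II and mechanical strain are well known inducers. The proteins act through integrins and other surface receptors and bind collagen, fibronectin and growth factors.

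The targeted gene gave the labels a check. Fbxo32 stood at 7.54 in wild type 1, while knockouts 1, 2 and 3 gave 5.65, 5.61 and 5.56 (log2 RMA level, as all levels below). Its log2 difference was -1.93 (SE 0.17), yet Fbxo32 itself did not pass the limma threshold used below (adjusted p under 0.05). The position of its probe set relative to the deleted part was not analysed here. Sex-linked transcripts divided the arrays otherwise. Xist, transcribed from the inactive X chromosome, was high in knockouts 1 and 2 (9.18 and 9.52) and low in knockout 3 (3.20) and wild type 1 (4.13). The Y-linked Eif2s3y showed the reverse, at 3.31 and 3.64 against 8.49 and 8.57. Knockout 3 minus wild type 1, a difference between arrays alike in these transcripts, is therefore given beside the genotype differences and list medians. The heart label held by its markers, since all 9 cardiomyocyte genes examined passed the filter and their mean level lay between 12.77 and 12.95 on every array. Array medians over the genes tested ran from 6.83 to 6.86.

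The matricellular genes showed 3 patterns across the arrays. Tnc, Thbs1 and Ccn2 were highest on the wild type array. Postn, Thbs4 and Sparc were highest in knockout 3 and lowest in knockout 1, with the wild type array between. Ccn3 and Thbs2 were lowest on the wild type array. Thbs3 and Thbs2 had the narrowest ranges of the 9 (0.53 and 0.50 log2 units), exceeded by 3579 and 4106 of the 14955 genes tested. Thbs3 was above wild type in knockout 3 alone. None of the 9 passed the limma test over all genes (adjusted p under 0.05), where 1 gene in all did, which is 0.00669% of those tested. By unadjusted limma p, 4 of the 9 were under 0.05 (background 5.72%), of which Tnc, Thbs1 and Ccn2 were lower in the knockout hearts (background 4.05%) and Ccn3 was higher (background 1.68%). That count was 2 without knockout 1, 2 without knockout 2 and 5 without knockout 3, where 3.40%, 2.91% and 10.6% of all genes tested were under 0.05. The same background holds for the counts of gene lists without an array below. The 3 genes with every knockout array below the wild type array, the 2 with every one above it and the 4 with wild type between are near the background shares of 24.6%, 23.9% and 51.5%.

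**Figure D1:**
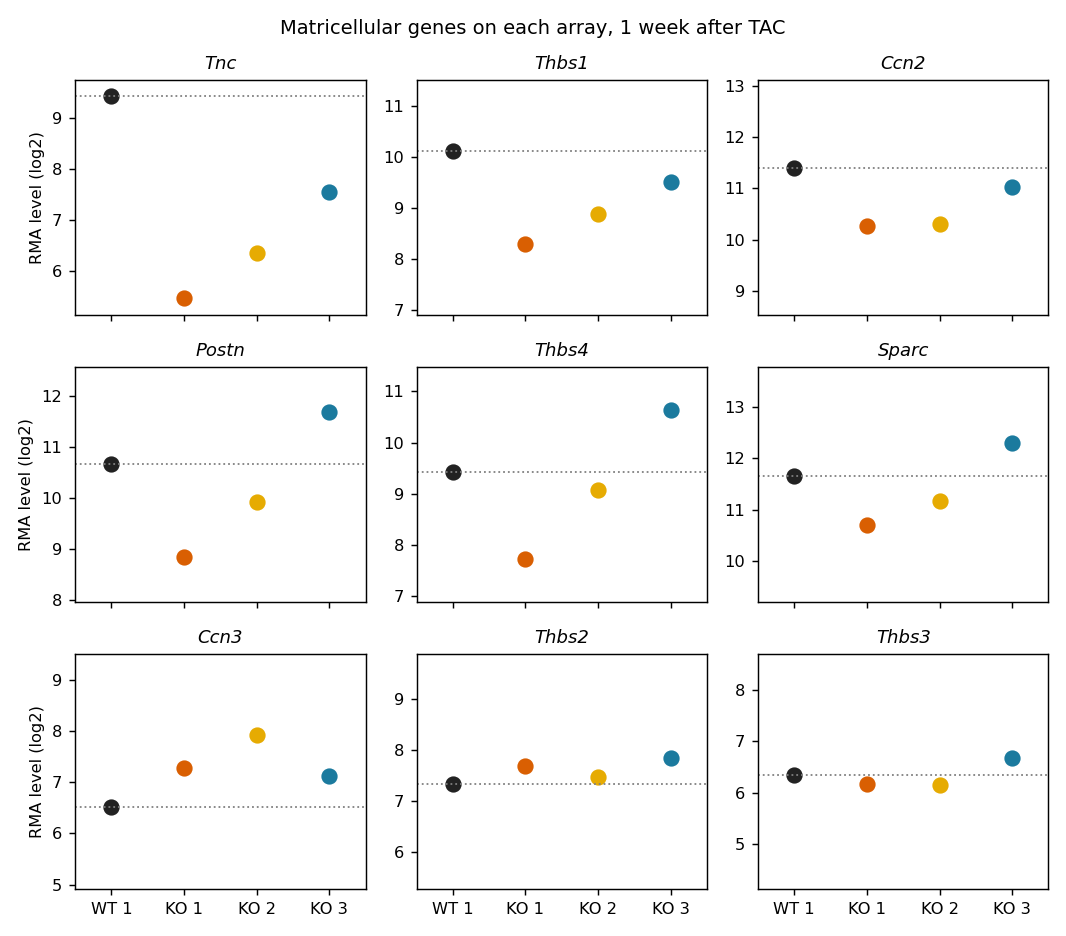
RMA level (log2, vertical axis) of 9 matricellular genes on the 4 arrays (horizontal axis), 1 wild type (WT) and 3 knockout (KO) hearts; each dot is 1 array, the dotted line marks the wild type level, and every panel spans the same number of log2 units. Tnc reads 9.42 in wild type and between 5.47 and 7.55 in the knockout hearts, Postn and Thbs4 lie on both sides of the wild type level, and Thbs3 stays between 6.15 and 6.68.

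Tnc, a large adhesion-modulating glycoprotein that reappears in the adult heart after injury, differed most. Its wild type level was 9.42, and knockouts 1, 2 and 3 gave 5.47, 6.36 and 7.55. No knockout array reached the wild type level, and knockout 3 came closest. Their mean, 6.46 ± 1.04 (SD, n = 3), was 7.78-fold lower, a log2 difference of -2.96 (SE 0.67, 95% interval -4.53 to -1.39, limma adjusted p = 0.430). In single arrays the shortfall was 15.5-fold for knockout 1, 8.34-fold for knockout 2 and 3.66-fold for knockout 3. Its range over the 4 arrays, 3.95 log2 units, was exceeded by 5 of the 14955 genes tested. The knockout arrays themselves spanned 2.08, slightly more than the 1.87 that separated wild type 1 from knockout 3.

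Thbs1, a thrombospondin that activates latent transforming growth factor beta and restrains angiogenesis, read 10.11 in wild type 1. On the knockout arrays it was 8.30, 8.87 and 9.51, again lowest in knockout 1 and nearest to wild type in knockout 3. The mean of 8.89 ± 0.61 (SD, n = 3) was 2.32-fold lower, a log2 difference of -1.22 (SE 0.41, 95% interval -2.18 to -0.25, limma adjusted p = 0.701). Knockout 3 alone stood at -0.60, a gap smaller than the 1.21 between the knockout arrays.

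Ccn2, connective tissue growth factor and a common readout of transforming growth factor beta and of the strain-sensitive factors YAP and TAZ, read 11.39 in wild type 1. Knockouts 1 and 2 were alike at 10.26 and 10.30, and knockout 3 gave 11.02. These arrays also stayed below the wild type level, but knockout 3 by only 0.37 log2 units. The log2 difference was -0.86 (SE 0.31, 95% interval -1.60 to -0.12, limma adjusted p = 0.778), a 1.82-fold lower mean of 10.53 ± 0.43 (SD, n = 3).

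Postn, an integrin-binding protein that marks activated fibroblasts, had a wild type level of 10.66, and knockouts 1, 2 and 3 gave 8.85, 9.92 and 11.69. The groups overlapped, with wild type inside the knockout range of 2.84 log2 units. The mean difference of -0.51 (SE 0.90, 95% interval -2.64 to 1.62, limma adjusted p = 0.991) covers a 3.51-fold lower level in knockout 1 and a 2.04-fold higher one in knockout 3. Knockout 3 minus wild type 1 was 1.03, and without knockout 1 the mean difference was 0.14.

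Thbs4, a thrombospondin induced in the stressed heart and known to act inside cells on the endoplasmic reticulum stress response, followed Postn closely. Its wild type level was 9.43, and knockouts 1, 2 and 3 stood at 7.73, 9.07 and 10.64. Wild type again lay inside the knockout range, here 2.91 log2 units or 7.52-fold, which 10 genes exceeded over the 4 arrays. The log2 difference was -0.28 (SE 0.91, 95% interval -2.44 to 1.88, limma adjusted p = 0.996), against 1.21 in knockout 3 alone and 0.42 without knockout 1.

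Sparc, a collagen-binding protein needed for normal collagen fibril deposition, had the same arrangement over a narrower range of 1.61. Wild type 1 stood at 11.66, and knockouts 1, 2 and 3 at 10.69, 11.16 and 12.30. Knockout 3 exceeded wild type by 0.64 while knockouts 1 and 2 were 0.97 and 0.50 below it. The log2 difference was -0.28 (SE 0.54, 95% interval -1.55 to 0.99, limma adjusted p = 0.994), and 0.07 without knockout 1.

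Ccn3, a CCN protein described in several tissues as acting against Ccn2, ran the other way. Wild type 1 stood at 6.51 and knockouts 1, 2 and 3 at 7.28, 7.92 and 7.12, so every knockout array exceeded wild type and knockout 2 was the highest. The mean of 7.44 ± 0.42 (SD, n = 3) was 1.91-fold higher, a log2 difference of 0.93 (SE 0.31, 95% interval 0.20 to 1.66, limma adjusted p = 0.696). Knockout 3 gave 0.61, within the 0.80 between the knockout arrays.

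Thbs2, the close relative of Thbs1 that limits matrix metalloproteinase activity, read 7.33 in wild type 1 and 7.68, 7.47 and 7.83 in the knockout hearts. Every knockout array was above wild type, knockout 2 by only 0.14 and knockout 3 by 0.50. The log2 difference was 0.33 (SE 0.20, 95% interval -0.15 to 0.81, limma adjusted p = 0.923). Thbs3, of the same subgroup as Thbs4, read 6.34 in wild type 1 and 6.17, 6.15 and 6.68 in the knockout hearts, with a log2 difference of -0.01 (SE 0.25, 95% interval -0.60 to 0.59, limma adjusted p = 0.997) and 0.34 in knockout 3. Its sign turned on leaving out knockout 1 (0.07) or knockout 2 (0.08), on centring each array (0.02) and on repeating the quantile normalization (0.03). Across the 4 thrombospondins the log2 difference ran from -1.22 for Thbs1 to 0.33 for Thbs2, and a difference between these genes was not tested.

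**Figure D2:**
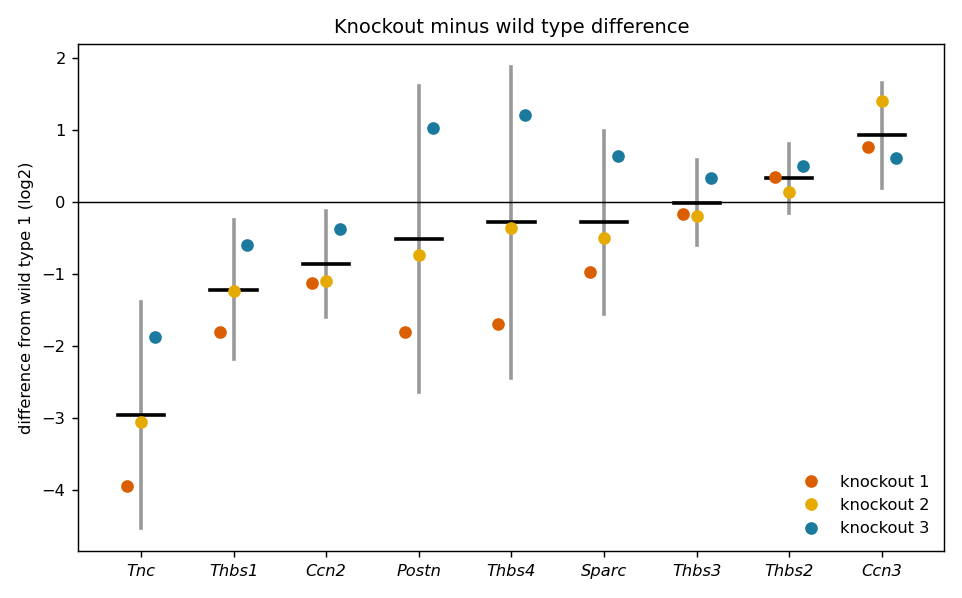
Difference from wild type 1 (log2, vertical axis) for 9 matricellular genes (horizontal axis), with a dot per knockout array, a black bar for the mean of 3 and a grey line for the 95% limma interval. The intervals of Tnc (-4.53 to -1.39), Thbs1, Ccn2 and Ccn3 leave out 0 before adjustment over all genes, and the dots of Postn, Thbs4, Sparc and Thbs3 lie on both sides of 0.

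Most of these genes differed widely among the knockout hearts. The 4 arrays spanned at least 1 log2 unit for 7 of the 9, against 4.05% of all genes tested, and the 3 knockout arrays alone did so for 5 (Tnc, Thbs1, Thbs4, Postn and Sparc), against 2.02%. In 6 genes knockout 1 was lowest, knockout 2 next and knockout 3 highest of the knockout arrays, an arrangement seen in 16.7% of all genes. In 4 genes (Thbs3, Thbs4, Postn and Sparc) knockout 3 alone was above wild type, against 9.84%. For 0 of the 9 did wild type 1 lie outside the knockout arrays by more than their own range, whereas 12.6% of all genes met that condition, Fbxo32 among them with a gap of 1.89 and a knockout range of 0.09. The median difference over the 9 genes was -0.28 for the genotype comparison and -1.13, -0.50 and 0.50 for knockouts 1, 2 and 3, beside medians of 0.00 and of 0.01, 0.00 and -0.01 over all genes tested. The genes were picked with earlier results of these arrays known, so these shares describe them and test nothing.

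Likeness between genes was measured as the Euclidean distance between their 4 array values after each gene's own mean was subtracted. Among the matricellular genes Postn and Thbs4 were closest (distance 0.28), followed by Thbs2 with Thbs3 (0.39) and Thbs1 with Ccn2 (0.51). The values were not scaled, so genes of small range, such as Thbs2 and Thbs3, lie close even where their arrangement differs. Among all genes tested, the 3 nearest to Tnc were Timp1 (0.18), an inhibitor of metalloproteinases, Aldh1a2 (0.59), an enzyme of retinoic acid synthesis, and Lox (0.78), which crosslinks collagen. Timp1 read 11.15 in wild type 1 and 7.34, 8.29 and 9.28 in the knockout hearts. Nearest to Thbs4 were Postn, 2210407C18Rik (0.36) and the collagen gene Col8a1 (0.48). For Postn they were Thbs4, the histone gene H1f5 (0.29) and Col3a1 (0.42). With 4 arrays such likeness is a description only.

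Upstream sequences are printed for genes of each pattern for which RefSeq (GRCm38.p6) gave one, as the 250 bases before the transcription start. Of the 10 genes 7 had such a window, 10 windows in all, and Thbs1, Ccn2 and Ccn3 are named only. Capitals mark matches, on either strand, to 6 motifs: that of AP-1 spelled TGANTCA, that of TEAD factors spelled GGAATG, that of SMAD proteins spelled CAGACA, the TATA motif with the letters TATAAA, the serum response motif known as CArG, and the NF-kB motif. Tnc, Postn and Spp1 have 2 listed starts, and for Tnc and Postn the downstream one is shown. Postn (chr3:54360857-54361106, plus strand), Thbs4 (chr13:92794819-92795068, minus strand) and Sparc (chr11:55420081-55420330, minus strand) shared a pattern on the arrays. Tnc (chr4:64046937-64047186, minus strand) had the largest difference, and Thbs2 (chr17:14694263-14694512, minus strand) the opposite sign.
Postn: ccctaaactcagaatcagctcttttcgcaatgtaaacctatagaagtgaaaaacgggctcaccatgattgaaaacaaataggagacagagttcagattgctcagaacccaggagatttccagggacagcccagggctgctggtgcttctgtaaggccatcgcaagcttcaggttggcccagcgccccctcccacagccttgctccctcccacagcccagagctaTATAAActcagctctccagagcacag
Thbs4: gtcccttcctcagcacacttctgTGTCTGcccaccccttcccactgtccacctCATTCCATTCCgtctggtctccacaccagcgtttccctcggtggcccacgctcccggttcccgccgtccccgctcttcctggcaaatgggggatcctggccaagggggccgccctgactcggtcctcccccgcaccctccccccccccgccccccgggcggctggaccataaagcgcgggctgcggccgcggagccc
Sparc: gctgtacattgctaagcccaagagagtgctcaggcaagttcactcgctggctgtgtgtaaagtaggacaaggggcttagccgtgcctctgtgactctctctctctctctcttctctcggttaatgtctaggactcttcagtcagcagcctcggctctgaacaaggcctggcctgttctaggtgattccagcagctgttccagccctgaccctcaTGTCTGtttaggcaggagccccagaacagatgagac
Tnc: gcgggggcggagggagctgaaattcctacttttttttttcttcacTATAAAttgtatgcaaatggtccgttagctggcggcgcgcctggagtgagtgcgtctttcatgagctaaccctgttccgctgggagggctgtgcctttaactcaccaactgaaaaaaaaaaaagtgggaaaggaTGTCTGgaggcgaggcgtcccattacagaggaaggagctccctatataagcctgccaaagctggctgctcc
Thbs2: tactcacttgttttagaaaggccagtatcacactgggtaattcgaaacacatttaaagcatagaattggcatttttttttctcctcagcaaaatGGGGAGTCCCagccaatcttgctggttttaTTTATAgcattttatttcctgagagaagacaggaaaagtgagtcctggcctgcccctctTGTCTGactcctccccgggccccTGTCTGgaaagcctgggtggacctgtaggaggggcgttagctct

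The 3 genes that shared a pattern differed in these windows. Postn held a TATA match from -26 to -21 and no other, and 52.0% of its bases were G or C. Thbs4 had no TATA match, a G and C content of 70.8%, a SMAD match from -227 to -222 and 2 TEAD matches from -197 to -187 that share 1 base. Sparc had a SMAD match from -36 to -31. In Tnc a SMAD match lay from -71 to -66 and a TATA match from -205 to -200, and the window of its other start, 79 bases upstream, held the same TATA match. Only the exact letters TATAAA were searched, so similar letters, such as tatataag nearer to the start of Tnc, are not marked. Thbs2 was the only gene with an NF-kB match (-156 to -147), beside 2 SMAD matches and a TATA match.

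Across the 7 genes the SMAD letters occurred in 5 (Tnc, Thbs2, Thbs4, Spp1 and Sparc) and in 5 of the 10 windows, against 17.1% of the 32851 windows of all genes. TATA letters were in 4 genes (Tnc, Thbs2, Spp1 and Postn) and in 5 of the 10 windows (12.4% of all), with 1 match counted in both overlapping windows of Tnc. TEAD letters were in 1 of the 10 windows (12.6% of all) and NF-kB letters in 1 (3.90%). AP-1 and CArG letters, found in 6.75% and 1.47% of all windows, were in none of them. No matches to different motifs overlapped. A match marks letters and not a bound site.

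Relatives of these proteins outside the 10 genes lay on both sides of the wild type level. Of 21 tested 0 passed the limma threshold, 3 were lower and 2 higher at an unadjusted p under 0.05 (background 4.05% and 1.68%), and the median was -0.01, or 0.07 in knockout 3 alone. Without knockouts 1, 2 and 3 there were 3, 2 and 8 at that p. Tgfbi, a periostin-related adhesion protein, read 9.39 in wild type 1 and 7.81, 8.12 and 8.15 in the knockout hearts (log2 difference -1.36, SE 0.20, limma adjusted p = 0.217). Its direction was that of Tnc, with knockout arrays much closer together. Sparcl1, the homologue of Sparc, was above wild type on all 3 knockout arrays, at 11.18, 11.16 and 11.49 against 10.48 (0.80, SE 0.20, adjusted p = 0.535). Smoc2, another protein with a Sparc-like calcium-binding domain, gave 0.55 (SE 0.18, adjusted p = 0.681). In knockout 3 alone Tgfbi, Sparcl1 and Smoc2 stood at -1.24, 1.01 and 0.44. Sparc itself lay on both sides of wild type.

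Among 30 receptors and binding partners 16 had every knockout array below wild type, 3 had every one above (24.6% and 23.9% of all genes), and the median was -0.27, or -0.09 in knockout 3 alone. None passed the limma threshold. At an unadjusted p under 0.05, 7 were lower and 1 higher (background 4.05% and 1.68%), and 8, 6 and 11 in all passed without knockouts 1, 2 and 3. Itga5, the fibronectin receptor subunit, read 9.21 in wild type 1 and 8.18, 7.97 and 8.33 in the knockout hearts (-1.05, SE 0.20, adjusted p = 0.372). Itgam and Itgb2, the subunits of a leukocyte integrin, gave -1.59 (SE 0.25) and -1.36 (SE 0.28), with adjusted p = 0.258 and 0.377. In knockout 3 these 3 receptor genes stood at -0.88, -1.26 and -0.95, where Postn, Thbs4 and Sparc were above wild type.

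Of 32 genes of transforming growth factor beta signalling and mechanical induction 14 lay below wild type on every knockout array and 3 above (24.6% and 23.9% of all genes), with a median of -0.15, or -0.07 in knockout 3 alone. None passed the limma threshold. At an unadjusted p under 0.05 there were 1, 1 and 7 without knockouts 1, 2 and 3, the last beside 10.6% of all genes. With all arrays 2 were lower at that p, a share near the background of 4.05%. These were Tgfb2, a ligand of the pathway (-1.16, SE 0.21, adjusted p = 0.353), and Ccn1 (-0.55, SE 0.20, adjusted p = 0.778). Ccn1, the CCN gene closest to Ccn2 in its use as a strain readout, read 9.91 in wild type 1 and 9.18, 9.40 and 9.51 in the knockout hearts. Edn1, the gene of endothelin 1, followed with -0.41 (SE 0.19, adjusted p = 0.884). In knockout 3 alone Tgfb2, Ccn1 and Edn1 stood at -0.98, -0.40 and -0.28.

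Genes for processing and turnover of these proteins numbered 22, with 10 below and 5 above wild type on every knockout array (24.6% and 23.9% of all genes). Their median was -0.23, but 0.01 in knockout 3 alone. None passed the limma threshold. At an unadjusted p under 0.05, 7 were lower and 2 higher (background 4.05% and 1.68%), and 7, 3 and 9 in all passed without knockouts 1, 2 and 3. The 3 of smallest p were Mmp3 (-1.59, SE 0.28, adjusted p = 0.336), a protease that cleaves many matrix proteins, Timp1 (-2.85, SE 0.62, adjusted p = 0.417) and Mmp12 (-1.35, SE 0.30, adjusted p = 0.419), the macrophage elastase. In knockout 3 alone they stood at -2.02, -1.87 and -0.89.

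The collagens and the other structural partners shared the arrangement of Postn, Thbs4 and Sparc. Of 16 tested, 15 had knockout 1 lowest, knockout 2 next and knockout 3 highest of the knockout arrays, and 12 had knockout 3 alone above wild type, against background shares of 16.7% and 9.84%. Their median was -0.44 over all knockout arrays and -1.13, -0.71 and 0.61 for knockouts 1, 2 and 3. None passed the limma threshold. At an unadjusted p under 0.05 there were 0, 0 and 10 without knockouts 1, 2 and 3, the last beside 10.6% of all genes. With all arrays 1 was lower at that p, a share near the background of 4.05%. That was Lox, at 9.27 in wild type 1 and 5.86, 6.48 and 8.45 in the knockout hearts (-2.34, SE 0.85, adjusted p = 0.778), lower on every knockout array as Tnc was. Fn1, fibronectin, gave -1.04 (SE 0.76, adjusted p = 0.945) but 0.33 in knockout 3, and Col12a1 gave -0.90 (SE 0.63, adjusted p = 0.939) but 0.19 in knockout 3. Lox stood at -0.82 there.

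**Figure D3:**
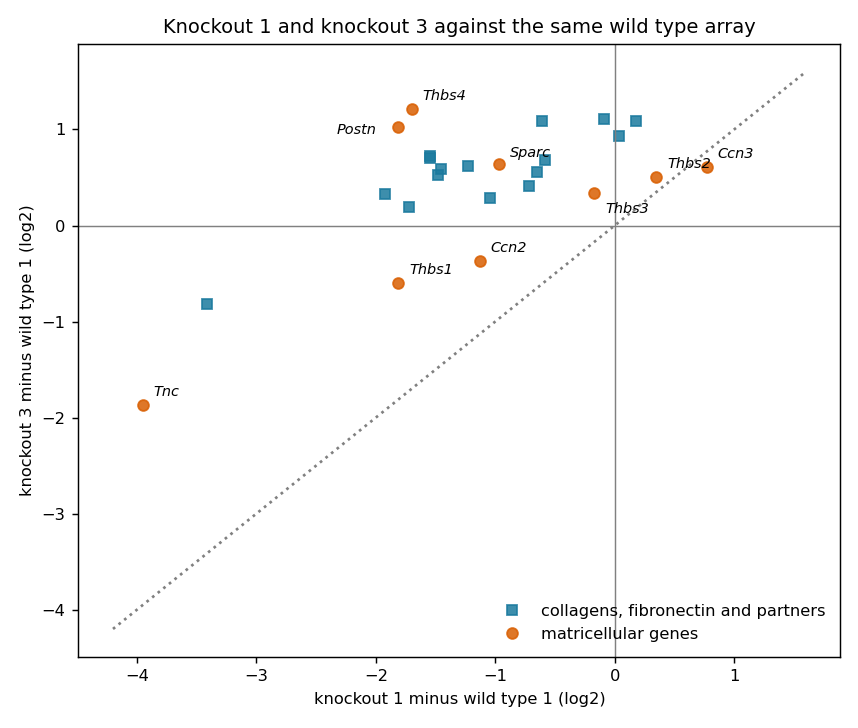
Knockout 1 minus wild type 1 (horizontal axis, log2) against knockout 3 minus wild type 1 (vertical axis, log2) for 9 matricellular genes (circles) and 16 collagens and structural partners (squares); the dotted line marks equal values, and both axes share the wild type array, so no correlation is given. Postn and Thbs4 lie with most collagens in the upper left (negative in knockout 1, positive in knockout 3), Tnc, Thbs1 and Ccn2 lie in the lower left with Lox, the square at the far left, and Ccn3 and Thbs2 lie in the upper right.

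Some cell type markers followed the arrangement of these values and others did not, and their part in them was not tested. Fewer cells of a type and less RNA per cell cannot be told apart in heart tissue. Of 10 fibroblast markers 1 lay below and 3 above wild type on every knockout array, against 24.6% and 23.9% of all genes tested. Their mean level was 9.79 in wild type 1 and 9.44, 9.74 and 10.16 in knockouts 1, 2 and 3. Pdgfra and Tcf21, which define the lineage, ranged from 8.29 to 8.64 and from 7.43 to 7.78. The 3 above wild type on every knockout array were Dpt, Dcn and Lum. They stood at 0.12, 0.08 and 0.24 in knockout 1 and at 0.50, 0.34 and 0.75 in knockout 3. Mfap5, Col1a1 and Col3a1 of the same list spanned 1.98, 2.01 and 2.25 log2 units, lowest in knockout 1 and highest in knockout 3 as Postn was, and Gsn spanned 0.94 and was highest in knockout 1. In all, 4 of the fibroblast markers (Pdgfra, Ddr2, Col1a1 and Col3a1) and 3 of the activated fibroblast markers (Comp, Lox and Ltbp2) also stand in the gene lists above. Of 10 markers of activated fibroblasts 5 lay below and 2 above (24.6% and 23.9% of all genes). Their mean level was 7.92 in wild type 1 and 6.71, 7.01 and 7.84 in the knockout hearts. The knockout 3 mean covers both directions. There 5 of these markers stood above wild type, among them Cilp (1.22) and Fap (0.86). The 5 below it included Lox (-0.82) and Acta2 (-0.78). Macrophage markers lay below wild type on every knockout array in 12 of 14, against 24.6% of all genes. Their mean levels were 8.37 against 7.38, 7.48 and 7.80, and Cd68 read 9.56 against 8.01, 8.18 and 8.58. Itgam stands in the macrophage list and among the receptors, and Ccn1 among both the relatives and the inducers.

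In knockout 3 alone the median difference was -0.54 for macrophage markers, -0.21 for activated fibroblast markers, 0.42 for fibroblast markers and 0.48 for endothelial markers. None of the markers in any list passed the limma threshold. At an unadjusted p under 0.05, 8 of 14 macrophage and 5 of 10 activated fibroblast markers were lower (background 4.05%), against 0 of 10 fibroblast markers and 1 each of the neutrophil, smooth muscle and mesothelial markers. No marker in any list was higher at that p. The median differences of the other lists were 0.11 for cardiomyocytes, -0.43 for atrial muscle, 0.26 for endothelium, 0.15 for smooth muscle and pericytes, -0.06 for mesothelium, 0.06 for cartilage and valve, 0.10 for Schwann cells, 0.16 for lymphocytes, -0.44 for neutrophils, -0.03 for erythroid cells and 0.32 for adipocytes. Of these, the neutrophil, Schwann and erythroid lists rest on 2, 3 and 2 tested genes. In knockout 3 alone cardiomyocytes stood at 0.00, atrial muscle at -0.34, smooth muscle and pericytes at 0.05 and mesothelium at -0.10. Cartilage and valve gave -0.21 there, Schwann cells 0.06, lymphocytes 0.17, neutrophils -0.13, erythroid cells 0.06 and adipocytes -0.01. Within the cartilage and valve list, Chad read 7.58 in wild type 1 against 8.07, 8.76 and 6.81, and Cytl1 read 8.09 against 8.46, 9.10 and 7.29, lowest in knockout 3 and highest in knockout 2. Their ranges of 1.95 and 1.81 log2 units were exceeded by 43 and 69 genes. Chad and Cytl1 were singled out after their values were seen, and the other tested genes of that list did not share their arrangement. Col2a1 and Col9a1 were highest in knockout 3 (7.13 and 6.32, against 6.79 and 5.91 in wild type 1). Acan and Sox9 lay below wild type on every knockout array and spanned 0.39 and 0.26 log2 units.

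**Figure D4:**
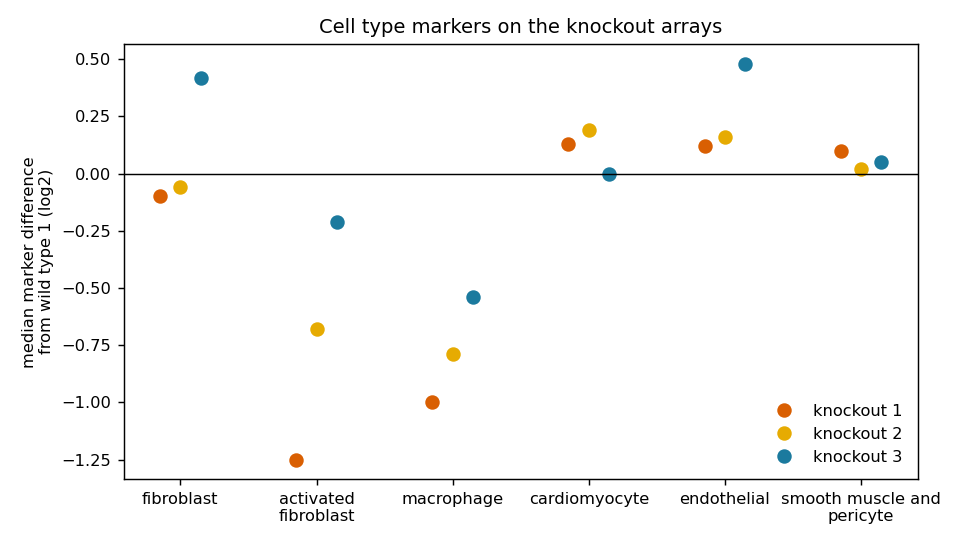
Median difference from wild type 1 (log2, vertical axis) of the markers of 6 cell types (horizontal axis), with a dot per knockout array. Macrophage markers are below 0 in all 3 knockout arrays (lowest in knockout 1, -0.79 in knockout 2 and -0.54 in knockout 3), fibroblast markers are at -0.10, -0.06 and 0.42, and cardiomyocyte markers stay between 0.00 and 0.19.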

How the data were processed

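Biotin-labelled cRNA from 4 mouse hearts was hybridised to Affymetrix Mouse Gene ST arrays. The authors deposited log2 levels per probe set, made by RMA in Affymetrix Expression Console according to the submitters' processing notes, which list no versions. RMA equalises the distributions of the arrays, so that a shift common to most genes is lost, and its background step shrinks differences of dim genes. No scanner files were used here.

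Of 35556 probe sets, 21789 had 1 gene symbol, 1621 several and 12146 none listed. Genes were read from the probe set of 1 symbol with the highest mean over the arrays (999 genes had several), and those under the 25th percentile (4.70) were left out. The genotype difference (knockout minus wild type) was tested two-sided by limma 3.58.1 under R 4.3.3, with eBayes and Benjamini-Hochberg adjustment over 14955 genes at a threshold of 0.05. The fit has 2 residual and 5.01 prior degrees of freedom and takes the wild type array to vary as the knockout arrays do. Exact permutation of 1 array against 3 would give p = 0.25 at best. The number of arrays limits the precision. The script was tested on simulated data.

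The genes, lists and alternatives were chosen with earlier results of these data known. Named are the 10 genes, Fbxo32, Xist, Eif2s3y, the 3 genes of smallest p in each of 5 lists, defining cell markers, and the 3 nearest genes of each of the 3 widest-ranging members. Alternatives were other normalizations, filters, probe set rules, variance models and thresholds, a covariate for Xist and leaving out each knockout array. Motifs were searched with Python 3.11.15. A planned description of protein sequences was not made.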

Additional observations from a re-analysis of the deposited data

How the results depend on the processing

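Across 99 recomputed differences of the 9 genes, 88 kept their sign and 11 reversed, and none passed the limma threshold in any of them (adjusted p from 0.333 to 0.998). Tnc, Thbs1, Ccn2, Ccn3 and Thbs2 kept their sign throughout. A change of filter or variance model cannot move a difference. Neither could the probe set rule, as each of the 9 genes had 1 probe set. So part of the 88 kept signs were fixed in advance, and all 11 reversals arose under the other alternatives. With Xist (high or low) as a covariate, where the difference equals knockout 3 minus wild type 1, the log2 difference was 0.34 for Thbs3, 1.21 for Thbs4, 1.03 for Postn and 0.64 for Sparc, and the median of the 9 genes was 0.50. In that fit 1 of the 9 was at an unadjusted limma p under 0.05 instead of 4, beside 4.56% of all genes tested instead of 5.72%. Thbs3 was 0.03 with repeated quantile normalization and 0.02 with arrays centred on their median. Leaving out each knockout array in turn gave -0.18 to 0.08 for Thbs3, -1.03 to 0.42 for Thbs4, -1.28 to 0.14 for Postn, -0.74 to 0.07 for Sparc, -1.03 to 0.07 for the median, and 2 to 5 genes at an unadjusted p under 0.05. The cause of these reversals was not tested. Of all genes 1 passed the threshold, against 0 to 9 under the alternatives (7 with an intensity trend, 9 with robust eBayes, 2 with a filter at the 50th percentile). At an unadjusted p under 0.05 there were 856, and 436 to 1579 on leaving out an array. No paired analysis was possible because the groups share 1 replicate number. With a single wild type array, its own deviation enters every difference.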
